A study of Mus musculus with 12 samples.

Results

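RNA-seq of eye tissue from mice that ate ad libitum (AL) was compared between animals injected with NaIO3 and animals injected with PBS, which asks what the injury alone changes before any diet is taken into account. The comparison took the 6 of the 12 libraries of the series whose labels give the AL diet, 3 of AL + NaIO3 and 3 of AL + PBS, and covered all genes. All 6 came from wild type male C57BL/6J mice that had free access to food for 12 weeks from 8 weeks of age. NaIO3 was injected once into the peritoneum at 25 mg/kg, PBS served as the vehicle, and tissue was collected 7 days later. The other 6 libraries, from mice on intermittent fasting (IF), enter only where they are named. No gene is deleted or driven in these mice, so the model is a chemical injury of the whole animal, and RNA of a whole dissected tissue was read.

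NaIO3 is an oxidant to which the retinal pigment epithelium (RPE) is highly sensitive. The RPE is the pigmented cell layer behind the retina: it regenerates the visual chromophore through the enzymes of the visual cycle, takes up shed rod and cone outer segments, passes glucose to the photoreceptors and carries their lactate away. When retinal neurons are damaged, Müller glia, the radial support cells of the retina, switch on a reactive program with intermediate filaments and acute phase proteins, and microglia, its resident macrophages, become active and take up debris.

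The total was between 30546495 and 43046950 counts in AL + PBS and between 26364665 and 33145828 counts in AL + NaIO3. Values are given per library in the order of replicates 1, 2 and 3, as CPM, the counts of a gene relative to the scaled size of the library. Between genes, levels are compared only in the deposited FPKM, which are divided by gene length. The labels call the tissue a complex of RPE, choroid and sclera extracted from eye cups, but rod genes were the highest of the markers in every library, so the tissue held retina: Gnat1, the transducin subunit of rods, was at 3856, 3661 and 3542 FPKM in AL + PBS and 3391, 2340.4 and 1281 FPKM in AL + NaIO3. The RPE marker Rpe65 was at 53.0, 47.2 and 64.1 FPKM in AL + PBS and 21.4, 19.1 and 29.2 FPKM in AL + NaIO3, whereas Best1, an RPE chloride channel, was low in every library, between 0.23 and 0.64 FPKM.

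Libraries also differed in the tissue they held. AL + NaIO3 replicate 3 stood apart: Tyrp1, an enzyme of melanin synthesis, was at 14.4, 7.53 and 10.8 FPKM in AL + PBS and 7.31, 7.20 and 239 FPKM in AL + NaIO3, and decorin (Dcn), a proteoglycan of the sclera, was at 31.2, 50.7 and 52.1 FPKM in AL + PBS and 42.8, 22 and 396 FPKM in AL + NaIO3. All 12 genes of the melanin list were measured, and their summed level was between 562 and 707 CPM in AL + PBS and 506, 647 and 2796 CPM in AL + NaIO3. The 28 rod genes went the other way in that library, with a sum of between 82671 and 86208 CPM in AL + PBS and 93021, 55779 and 29059 CPM in AL + NaIO3. Markers of other parts of the eye were high in single libraries too: the lens crystallin Cryaa was at 1.80, 91.6 and 1.29 FPKM in AL + PBS and 0, 0.0972 and 0 FPKM in AL + NaIO3, and the corneal keratin Krt12 was at 0.279, 4.10 and 2.67 FPKM in AL + PBS and 1.13, 69.1 and 0.224 FPKM in AL + NaIO3. The part of these differences in tissue in the results below was not tested, so most genes named are given in each of the 6 libraries, and results are also judged without AL + NaIO3 replicate 3. In bulk tissue, fewer cells of a type and less RNA per cell cannot be told apart.

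With all 6 libraries, 12 of 15612 genes tested (0.0769%) were called, that is, had an adjusted p under 0.05 in edgeR's quasi-likelihood test and a fold change of at least 1.5; 8 were higher in AL + NaIO3 (0.0512%) and 4 lower (0.0256%). Without AL + NaIO3 replicate 3, 90 of 15731 genes (0.572%) were called, 62 higher (0.394%) and 28 lower (0.178%), and all 12 genes of the first fit were among them. An unadjusted p under 0.05 was found for 1599 genes with 6 libraries and 1922 without replicate 3, and DESeq2 called 411 and 348 genes. Upper quartile scaling gave 13 calls with 6 libraries, 10 higher and 3 lower. The call of the 12 rests on all 3 controls: when AL + PBS replicate 1, 2 or 3 was left out, edgeR called 0 genes, while 910, 1005 and 900 genes reached 0.05 before adjustment. Leaving out AL + NaIO3 replicate 1 gave 8 calls and leaving out replicate 2 gave 5. The fit without replicate 3 gave 34, 32 and 17 calls when AL + PBS replicate 1, 2 or 3 was left out as well, of which 28, 31 and 17 were among the 90. Over all genes tested the median log2 fold change was 0.01 with 6 libraries and 0.00 without replicate 3, and 52.3% and 50.5% of genes were above 0.

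Of the 62 genes called higher without replicate 3, replicate 3 itself was above each AL + PBS library in 59, within their range in 2 and below them in 1; over all genes tested it was above each AL + PBS library in 38.7%. Of the 28 called lower, it was below each AL + PBS library in 24 and above each in 4, against 38.3% of all genes below. Among the 88 of these genes that both fits tested, 87 had the same sign in both. The fits share the AL + PBS libraries and AL + NaIO3 replicates 1 and 2, so this agreement was largely set in advance. In 56 of 60 higher genes replicate 3 lay farther above the controls than the mean of replicates 1 and 2. In 21 of 28 lower genes replicate 3 was also above that mean, in 4 of them above each AL + PBS library. The plot of replicate 3 against replicates 1 and 2 shows this.

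**Figure D1:**
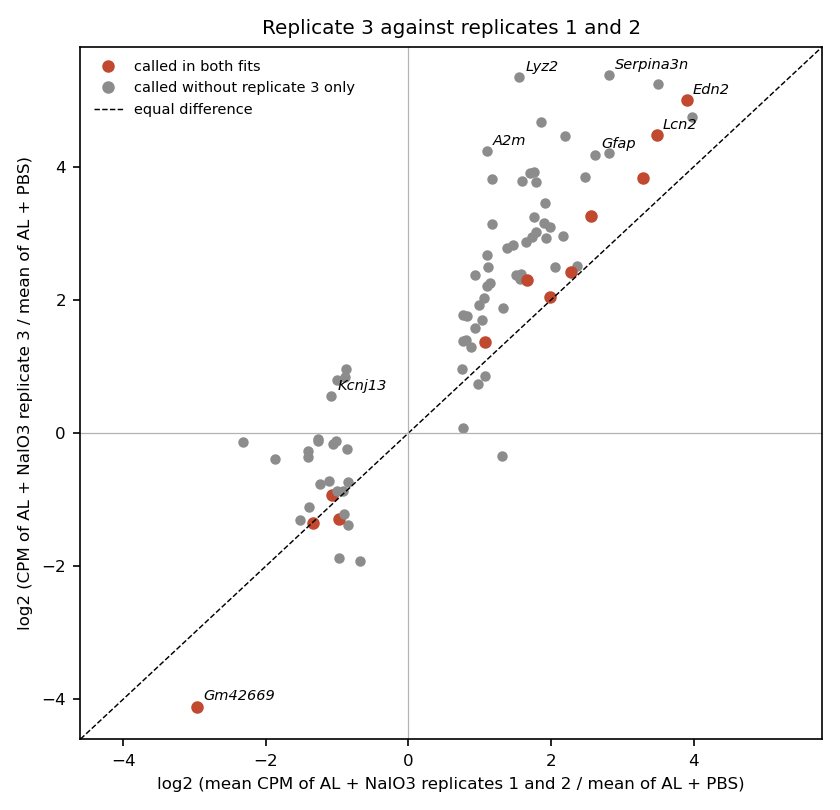
Each point is 1 of the 88 genes called without AL + NaIO3 replicate 3 and tested in both fits; the x axis gives the log2 ratio of the mean CPM of AL + NaIO3 replicates 1 and 2 to the AL + PBS mean, the y axis that of replicate 3, and the dashed line equal ratios. Of the genes right of 0, 56 of 60 lie above the line, and Kcnj13 is among 4 genes left of 0 that lie above 0 on the y axis.

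The largest rises among the 12 were those of a secreted acute phase protein and of an endothelin. Lcn2, the iron-binding acute phase protein lipocalin 2, had 4.34, 3.81 and 4.2 CPM in AL + PBS and 54.2, 37.8 and 91.9 CPM in AL + NaIO3. It rose 14.9-fold. Lcn2 rose by 3.90 ± 0.33 (log2, SE) with 6 libraries, at an adjusted p of 0.0186. Edn2, the endothelin ligand that injured photoreceptors are known to make, had 3.07, 5.10 and 4.27 CPM in AL + PBS and 42.3, 81.8 and 132 CPM in AL + NaIO3, a rise of 20.5-fold. With 6 libraries, Edn2 rose by 4.36 ± 0.44 in log2 terms (adjusted p = 0.0294). For both genes the lowest AL + NaIO3 library was several times the highest AL + PBS library, and replicate 3 was the highest of all.

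Cebpd, a C/EBP transcription factor of the acute phase response, had 9.63, 11.4 and 12.4 CPM in AL + PBS and 63.6, 68.2 and 107 CPM in AL + NaIO3. Its log2 fold change with 6 libraries was 2.84 ± 0.23 (adjusted p = 0.0186). S100a6, a calcium-binding protein of reactive glia, had 9.76, 13.2 and 15.2 CPM in AL + PBS and 37.8, 63.3 and 52.6 CPM in AL + NaIO3. S100a6 rose by 2.01 ± 0.24 (log2, SE) with 6 libraries, at an adjusted p of 0.0476. H2-Q4, a class I histocompatibility gene, had 6.50, 5.6 and 4.47 CPM in AL + PBS and 24.0, 29.6 and 29.6 CPM in AL + NaIO3. With 6 libraries, H2-Q4 rose by 2.33 ± 0.20 in log2 terms (adjusted p = 0.0186). Both groups were separate in each of these genes, and in S100a6 and H2-Q4 replicate 3 did not exceed replicate 2. H2-Q4 belongs to a family of near-identical genes, so that its reads may be divided among copies. Nupr1, a chromatin-binding stress protein, had 8.71, 10.7 and 10.4 CPM in AL + PBS and 33.4, 29.5 and 48.8 CPM in AL + NaIO3. For Nupr1 the log2 fold change with 6 libraries was 1.90 ± 0.22 (adjusted p = 0.0476). Mt2, the metal-binding metallothionein 2, had 35.2, 38.8 and 32.6 CPM in AL + PBS and 67.8, 81.8 and 91.5 CPM in AL + NaIO3. Mt2 rose by 1.18 ± 0.14 (log2, SE) with 6 libraries, at an adjusted p of 0.0493. Both rose in every AL + NaIO3 library, and Mt2 was the call nearest to the threshold.

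Of the 4 genes called lower, 3 are protein-coding genes of known function. Slc16a8, the lactate transporter of the basolateral RPE membrane, had 63.4, 65.9 and 65.4 CPM in AL + PBS and 32.3, 29.7 and 34.0 CPM in AL + NaIO3. With 6 libraries, Slc16a8 fell by 1.02 ± 0.11 in log2 terms (adjusted p = 0.0392). Insig1, which holds the sterol sensor in the endoplasmic reticulum and is itself a sterol-regulated gene, had 105, 109 and 106 CPM in AL + PBS and 54.1, 54.5 and 43.7 CPM in AL + NaIO3. For Insig1 the log2 fold change with 6 libraries was -1.07 ± 0.12 (adjusted p = 0.0476). Pon1, a lipoprotein-bound esterase, had 23, 25.6 and 27.0 CPM in AL + PBS and 9.12, 10.8 and 9.89 CPM in AL + NaIO3. Pon1 fell by 1.34 ± 0.16 (log2, SE) with 6 libraries, at an adjusted p of 0.0476. For all 3, each AL + NaIO3 library was far below the lowest AL + PBS library, and replicate 3 lay close to replicates 1 and 2. Predicted genes made up the rest: Gm42669 was lower (36.7, 34.8 and 32.6 CPM in AL + PBS and 2.81, 6.05 and 2.01 CPM in AL + NaIO3; log2 fold change -3.27 ± 0.39 (SE), adjusted p = 0.0476) and Gm49027 higher (1.57, 1.92 and 1.13 CPM in AL + PBS and 17.9, 12.1 and 22 CPM in AL + NaIO3; log2 fold change 3.49 ± 0.33 (SE), adjusted p = 0.0236). Gm42669 shares its locus with Glmn and Btbd8, Gm49027 with Diablo and Slc16a8 with Gm49486, so reads of these neighbours cannot be told apart here.

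**Figure D2:**
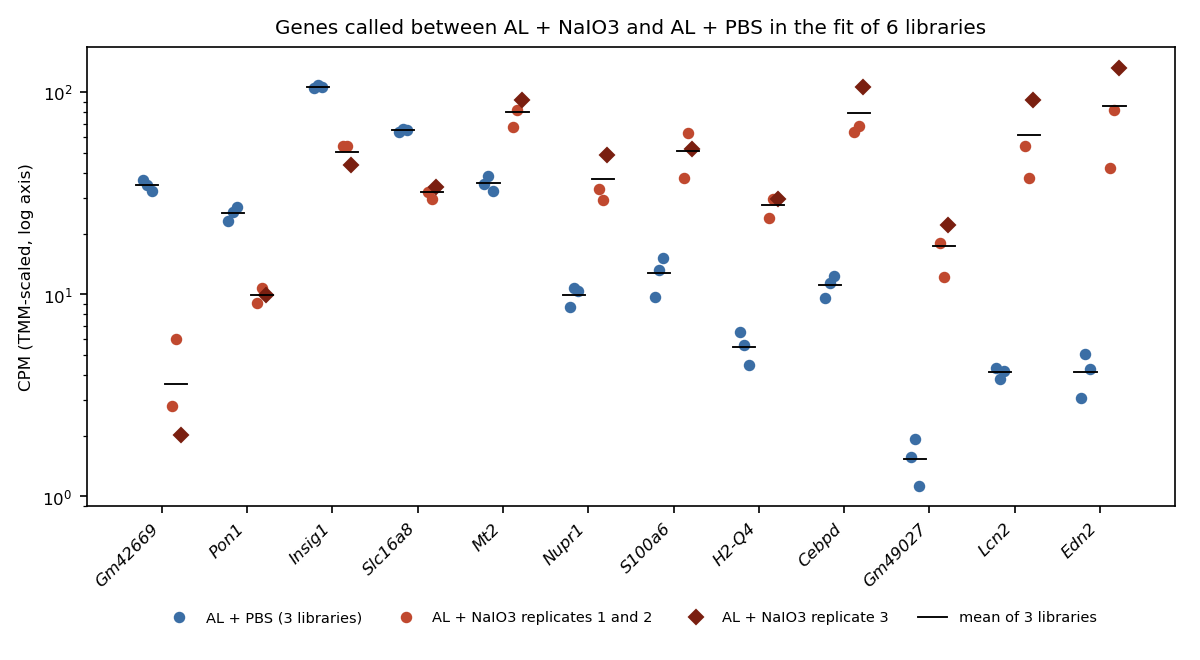
CPM of the 12 genes called with 6 libraries (log axis); blue circles are AL + PBS, red circles AL + NaIO3 replicates 1 and 2, dark diamonds AL + NaIO3 replicate 3, and bars the mean of 3 libraries. The 2 groups are separate in all 12, and Edn2 goes from a highest AL + PBS value of 5.10 to a lowest AL + NaIO3 value of 42.3 CPM.

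The promoters of 3 of these genes are shown because they match a loose letter pattern written for motifs known from the control of inflammatory genes. A match is a description only, and binding was not tested. Windows of 300 bases, from 250 before to 50 after the RefSeq start (GRCm38.p6), were searched on both strands for a kappa-B motif (GGGA, any 4 bases, CC) and a STAT motif (TTCNNNGAA). Neither motif contains the other. H2-Q4 (chr17:35379367-35379666, plus strand) and Edn2 (chr4:120160956-120161255, plus strand) each held a kappa-B match, at -173 and -79 from the start, and Nupr1 (chr7:126625421-126625720, minus strand) held a STAT match at -128. Capitals mark the match:
H2-Q4: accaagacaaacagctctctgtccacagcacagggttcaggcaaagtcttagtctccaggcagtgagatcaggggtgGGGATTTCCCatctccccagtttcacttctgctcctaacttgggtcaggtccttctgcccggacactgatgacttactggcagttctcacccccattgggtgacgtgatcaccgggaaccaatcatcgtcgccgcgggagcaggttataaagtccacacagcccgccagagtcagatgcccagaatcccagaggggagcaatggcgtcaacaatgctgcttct
Edn2: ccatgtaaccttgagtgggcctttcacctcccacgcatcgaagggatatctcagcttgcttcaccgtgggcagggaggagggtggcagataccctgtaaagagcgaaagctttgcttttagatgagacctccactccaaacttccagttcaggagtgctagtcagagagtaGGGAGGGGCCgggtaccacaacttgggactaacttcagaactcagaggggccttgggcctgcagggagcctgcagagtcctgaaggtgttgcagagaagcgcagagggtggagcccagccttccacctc
Nupr1: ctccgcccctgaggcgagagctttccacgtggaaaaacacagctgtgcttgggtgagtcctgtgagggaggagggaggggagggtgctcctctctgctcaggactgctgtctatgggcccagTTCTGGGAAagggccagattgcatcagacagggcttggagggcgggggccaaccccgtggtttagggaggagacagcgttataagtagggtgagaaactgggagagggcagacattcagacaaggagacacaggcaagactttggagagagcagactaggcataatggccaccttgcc

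Of the 12 genes called with 6 libraries, 9 had a window, of which 2 held a kappa-B match (22.2%) and 1 a STAT match (11.1%). A kappa-B match was found in 29.9% of the 12289 tested genes with a window, in 25 of 46 such genes called higher without replicate 3 and in 7 of 21 called lower. The STAT motif was found in 8.27% of all, in 8 of 46 called higher, among them Gfap, Socs3 and Steap4, and in 0 of 21 called lower. Over all genes an AP-1 motif (TGANTCA) was in 6.56% of genes, an antioxidant motif (TGACNNNGC) in 16.5% and a sterol motif (TCACNCCAC) in 1.38%. The Mt2 window held an AP-1 and an antioxidant match, which both start at -79 and so lie on the same stretch. No gene called lower held the sterol motif, which says only that these letters are not in those windows.

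In the RPE list, replicate 3 differed from replicates 1 and 2. The list's median against the AL + PBS mean was -0.41, -0.57 and 0.10 (log2) in AL + NaIO3 and -0.03, -0.02 and 0.09 in AL + PBS. Of 25 RPE genes tested, 18 had a log2 fold change below 0 with 6 libraries, and 7 above it; 9 of those below did not overlap between the groups (7.96% of all genes did so in that direction), and 1, Slc16a8, was called. Without replicate 3, 20 of 25 were below 0 with a median log2 fold change of -0.53, and 7 were called lower and 0 higher.

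Rgr, an opsin of the RPE that regenerates chromophore in the light, had 556, 483 and 554 CPM in AL + PBS and 223, 146 and 215 CPM in AL + NaIO3. Without replicate 3, Rgr fell by 1.53 ± 0.19 in log2 terms (adjusted p = 0.0138). Rpe65, the isomerase of the visual cycle, had 115, 105 and 145 CPM in AL + PBS and 52.3, 40.4 and 56.4 CPM in AL + NaIO3. For Rpe65 the log2 fold change without replicate 3 was -1.39 ± 0.17 (adjusted p = 0.0142). Rdh5, the retinol dehydrogenase that follows it, had 121, 116 and 118 CPM in AL + PBS and 54.5, 46.2 and 70.0 CPM in AL + NaIO3. Rdh5 fell by 1.24 ± 0.11 (log2, SE) without replicate 3, at an adjusted p of 0.00368. In these 3 genes every AL + NaIO3 library, replicate 3 included, was below every AL + PBS library, although with 6 libraries the adjusted p was 0.0672, 0.0672 and 0.0968. Ttr, the retinol carrier transthyretin, was also lower in each library, with 678, 727 and 797 CPM in AL + PBS and 376, 359 and 399 CPM in AL + NaIO3. Without replicate 3, Ttr fell by 1.0 ± 0.13 in log2 terms (adjusted p = 0.0142).

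Other RPE genes differed between replicate 3 and the rest. Lrat, which esterifies retinol to supply Rpe65, had 39.9, 36.3 and 45.8 CPM in AL + PBS and 13.7, 8.48 and 31.0 CPM in AL + NaIO3. For Lrat the log2 fold change without replicate 3 was -1.88 ± 0.22 (adjusted p = 0.0123). Kcnj13, a potassium channel of the RPE, had 19.97, 17.5 and 21.0 CPM in AL + PBS and 8.99, 9.39 and 28.7 CPM in AL + NaIO3. Kcnj13 fell by 1.09 ± 0.16 (log2, SE) without replicate 3, at an adjusted p of 0.0264. Stra6, the retinol-binding protein receptor, had 36.5, 31.2 and 35.5 CPM in AL + PBS and 22.2, 9.79 and 44.6 CPM in AL + NaIO3 and was not called (adjusted p = 0.198 without replicate 3). Replicate 3 was above the controls for Kcnj13 and Stra6 and just below them for Lrat. Rlbp1, a retinal-binding protein of both RPE and Müller glia, had 502, 549 and 520.1 CPM in AL + PBS and 507, 434 and 504 CPM in AL + NaIO3, and the groups overlapped. Rrh, another RPE opsin, had 33.8, 32.0 and 30.8 CPM in AL + PBS and 32.6, 23.9 and 28.4 CPM in AL + NaIO3 and was not called either (log2 fold change -0.18 with 6 libraries).

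The pigment genes followed replicate 3. Tyr, the first enzyme of melanin synthesis, had 11.8, 10.3 and 12.6 CPM in AL + PBS and 9.09, 6.89 and 97.0 CPM in AL + NaIO3, and Dct, a later enzyme, had 186, 159 and 165 CPM in AL + PBS and 164, 137 and 794 CPM in AL + NaIO3. The median of the 12 melanin genes against the AL + PBS mean was -0.42, -0.71 and 2.07 (log2) in the 3 AL + NaIO3 libraries, below the controls in the first 2 and far above in the third, and edgeR called 0 with 6 libraries (1 at an unadjusted p under 0.05; DESeq2 called 1) and 0 without replicate 3 (6 before adjustment; DESeq2 called 0). The list's median log2 fold change accordingly turned from 1.10 with 6 libraries to -0.58 without replicate 3.

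**Figure D3:**
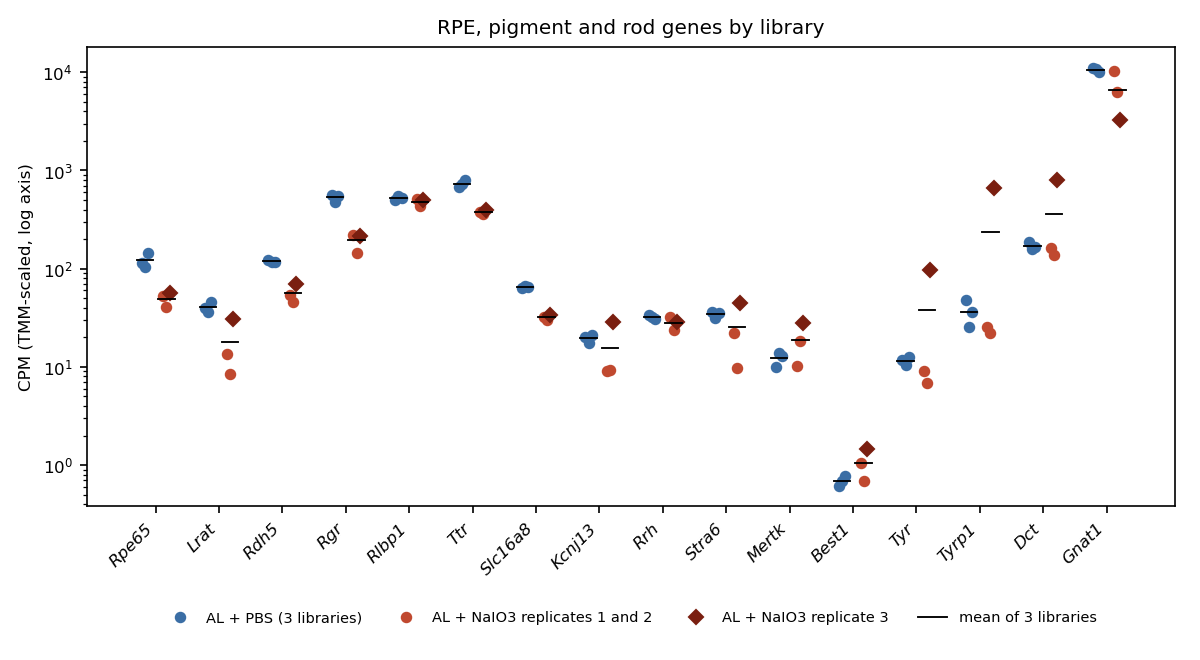
CPM per library (log axis) of 12 RPE genes, 3 melanin genes and 1 rod gene, with symbols as in the plot of the 12 called genes. Rpe65, Rdh5, Rgr, Ttr and Slc16a8 are lower in all 3 AL + NaIO3 libraries, Kcnj13 and the melanin genes are highest in AL + NaIO3 replicate 3, and the rod gene Gnat1 is at 10375, 6353 and 3235 CPM in the AL + NaIO3 libraries.

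No rod gene was called. Of 28 tested, 27 had a log2 fold change below 0 with 6 libraries (median -0.55) and 23 without replicate 3 (median -0.23). For these genes edgeR called 0 with 6 libraries (1 at an unadjusted p under 0.05; DESeq2 called 0) and 0 without replicate 3 (1 before adjustment; DESeq2 called 0). Gnat1 had 11083, 10693 and 10165 CPM in AL + PBS and 10375, 6353 and 3235 CPM in AL + NaIO3. For Gnat1 the log2 fold change was -0.68 ± 0.41 with 6 libraries (adjusted p = 0.614) and -0.35 ± 0.23 without replicate 3 (adjusted p = 0.590). The 3 AL + NaIO3 libraries were spread widely: the list's median against the AL + PBS mean was 0.04, -0.54 and -1.58 (log2), so that replicate 1 was at the control level. Sag, the rod arrestin, was the exception above 0, with 4449.9, 4543 and 4615 CPM in AL + PBS and 8082, 4835 and 3037 CPM in AL + NaIO3. Replicate 3, the lowest in rod genes, is also the library highest in melanin and stroma genes. The groups did not overlap for 6 of the 28, against 7.96% of all genes not overlapping lower, among them Rcvrn, the calcium sensor recoverin, with 851, 848 and 830.0 CPM in AL + PBS and 794, 479 and 358 CPM in AL + NaIO3. In Rcvrn the log2 fold change came to -0.63 ± 0.28 with 6 libraries (adjusted p = 0.493) and -0.41 ± 0.20 without replicate 3 (adjusted p = 0.459).

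Of 13 cone genes, 7 were above 0 with 6 libraries (median 0.11) and 11 without replicate 3 (median 0.34), and edgeR called 0 with 6 libraries (2 at an unadjusted p under 0.05; DESeq2 called 1) and 0 without replicate 3 (4 before adjustment; DESeq2 called 1). The cone opsin Opn1mw had 117, 106 and 105 CPM in AL + PBS and 190.2, 131 and 94.4 CPM in AL + NaIO3, and the groups overlapped. Of 13 bipolar genes, 9 were below 0, and edgeR called 0 with 6 libraries (1 at an unadjusted p under 0.05; DESeq2 called 0). Of 20 amacrine, horizontal and ganglion genes, 12 were below 0, and edgeR called 0 with 6 libraries (0 at an unadjusted p under 0.05; DESeq2 called 0). Their medians without replicate 3 were -0.17 and -0.01, near the 0.00 of all genes for the second.

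The reactive program of Müller glia and astrocytes held the most calls of any list. All 27 of its genes had a log2 fold change above 0 with 6 libraries (median 2.18), 25 with no overlap between groups, against 9.95% of all genes, and 4 were called (Cebpd, Edn2, Lcn2 and S100a6). Edn2 was put in this list although injured photoreceptors are known to make it, and its cell of origin here was not tested. Without replicate 3, 26 of 27 were above 0 (median 1.73) and 17 were called higher, 0 lower. DESeq2 called 23 genes of the list higher with 6 libraries and 22 without replicate 3. The list's median against the AL + PBS mean was 1.23, 2.04 and 2.89 (log2) in the AL + NaIO3 libraries, while the AL + PBS libraries were at -0.20, 0.14 and 0.06. The summed level of the list was between 552 and 690.4 CPM in AL + PBS and 1447, 1734 and 3578 CPM in AL + NaIO3.

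Among the filament genes, Gfap, the glial intermediate filament protein that Müller glia make when reactive, had 12.5, 23.4 and 16.1 CPM in AL + PBS and 114, 99.0 and 315 CPM in AL + NaIO3. Gfap rose by 2.61 ± 0.23 (log2, SE) without replicate 3, at an adjusted p of 0.00347. Vim, vimentin, had 114, 137 and 134 CPM in AL + PBS and 225, 223 and 336 CPM in AL + NaIO3. Without replicate 3, Vim rose by 0.80 ± 0.11 in log2 terms (adjusted p = 0.0259). Nes, nestin, had 8.32, 8.57 and 8.27 CPM in AL + PBS and 19.7, 16.5 and 38.8 CPM in AL + NaIO3. Its log2 fold change without replicate 3 was 1.10 ± 0.16 (adjusted p = 0.0264). Each was higher in all 3 AL + NaIO3 libraries. Without replicate 3 the rise was 6.10-fold for Gfap, 1.74-fold for Vim and 2.15-fold for Nes, and with 6 libraries the fold change was 10.1, 2.04 and 2.98. Gfap was among the 15 genes, 13 higher and 2 lower, that stayed called in the fit without replicate 3 under each of its 11 alternatives; the others were Abca1, C1qb, C4b, Cebpd, Crym, Edn2, H2-K1, H2-Q4, Lcn2, Nupr1, Serpina3n, Rdh5 and the predicted genes Gm42669 and Gm49027.

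Serpina3n, an acute phase protease inhibitor, had 7.87, 12.2 and 11.7 CPM in AL + PBS and 72.5, 75.8 and 439 CPM in AL + NaIO3. Serpina3n rose by 2.80 ± 0.18 (log2, SE) without replicate 3, at an adjusted p of 0.000928. Steap4, a metalloreductase induced by inflammation, had 0.392, 1.70 and 1.5 CPM in AL + PBS and 13.3, 13.7 and 45.2 CPM in AL + NaIO3. Without replicate 3, Steap4 rose by 3.47 ± 0.47 in log2 terms (adjusted p = 0.0197). Cd44, the hyaluronan receptor, had 12.8, 18.8 and 14.1 CPM in AL + PBS and 47.8, 48.1 and 112 CPM in AL + NaIO3. For Cd44 the log2 fold change without replicate 3 was 1.65 ± 0.17 (adjusted p = 0.00699). Each was several times the control level in replicates 1 and 2 and higher still in replicate 3. With 6 libraries their adjusted p in edgeR was 0.137, 0.109 and 0.115, so edgeR called these genes only without replicate 3. A2m, a protease-trapping macroglobulin, had 17.7, 16.3 and 17.7 CPM in AL + PBS and 31.2, 42.4 and 325 CPM in AL + NaIO3. A2m rose by 1.09 ± 0.16 (log2, SE) without replicate 3, at an adjusted p of 0.0259. In A2m replicate 3 was far above replicates 1 and 2. S100a10, the partner of annexin A2, had 21.8, 27.7 and 26.3 CPM in AL + PBS and 49.8, 57.1 and 45.8 CPM in AL + NaIO3. Without replicate 3, S100a10 rose by 1.07 ± 0.14 in log2 terms (adjusted p = 0.0168). Cp, the ferroxidase ceruloplasmin, had 153, 188 and 157 CPM in AL + PBS and 274, 289.9 and 564 CPM in AL + NaIO3. For Cp the log2 fold change without replicate 3 was 0.76 ± 0.12 (adjusted p = 0.0410). Timp1, an inhibitor of matrix metalloproteinases, had 0, 0.718 and 1.13 CPM in AL + PBS and 13.3, 9.03 and 21.0 CPM in AL + NaIO3 and was not called (adjusted p = 0.0852 without replicate 3). Tnc, tenascin C, was the 1 gene of the list below 0 without replicate 3, with 17.3, 19.5 and 17.1 CPM in AL + PBS and 17.1, 18.7 and 29.8 CPM in AL + NaIO3.

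Signalling through gp130 cytokine receptors is known to drive this glial program, and a receptor and a feedback gene of it were called. Osmr, the oncostatin M receptor, had 12, 12.6 and 14.0 CPM in AL + PBS and 23.7, 31.6 and 81.8 CPM in AL + NaIO3. Osmr rose by 1.10 ± 0.17 (log2, SE) without replicate 3, at an adjusted p of 0.0316. Socs3, the feedback inhibitor of the pathway, had 3.98, 5.44 and 5.47 CPM in AL + PBS and 17.0, 20.4 and 54.5 CPM in AL + NaIO3. Without replicate 3, Socs3 rose by 1.91 ± 0.21 in log2 terms (adjusted p = 0.00817). Bcl3, a nuclear IkB-like cofactor, had 1.47, 1.51 and 0.567 CPM in AL + PBS and 7.65, 8.99 and 21.8 CPM in AL + NaIO3. For Bcl3 the log2 fold change without replicate 3 was 2.80 ± 0.40 (adjusted p = 0.0264). All were called by edgeR only without replicate 3. Of the 20 genes of the endothelin and gp130 list, 17 were above 0 with 6 libraries and 12 without replicate 3, with medians of 1.17 and 0.13, and 3 were called higher without it (Edn2, Osmr and Socs3). The other endothelin ligands were not called: Edn1 had 3.62, 1.82 and 1.83 CPM in AL + PBS and 1.60, 2.39 and 2.91 CPM in AL + NaIO3 and Edn3 had 5.52, 4.98 and 5.77 CPM in AL + PBS and 3.76, 2.75 and 44.4 CPM in AL + NaIO3.

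Of 17 homeostatic genes of Müller glia, 11 were above 0 with 6 libraries (median 0.23) and 8 without replicate 3 (median -0.03). The groups did not overlap for 6 higher and 2 lower genes (9.95% and 7.96% of all genes), and DESeq2 called 3 higher and 0 lower in each fit. Glul, the glutamine synthetase of these cells, had 2567, 2883 and 2564 CPM in AL + PBS and 2164, 2137 and 2176 CPM in AL + NaIO3. Glul had a log2 fold change of -0.31 ± 0.18 with 6 libraries (adjusted p = 0.597) and -0.32 ± 0.14 without replicate 3 (adjusted p = 0.423). The glutamate transporter Slc1a3 had 160.4, 189 and 192 CPM in AL + PBS and 164, 187 and 287 CPM in AL + NaIO3. For Slc1a3 the log2 fold change was 0.23 ± 0.21 with 6 libraries (adjusted p = 0.749) and -0.05 ± 0.12 without replicate 3 (adjusted p = 0.909). Crym, a thyroid hormone-binding crystallin that Müller glia express, was called higher without replicate 3, with 41.0, 50.1 and 49.1 CPM in AL + PBS and 132, 133 and 241 CPM in AL + NaIO3. For Crym the log2 fold change without replicate 3 was 1.5 ± 0.12 (adjusted p = 0.00237). Apoe, an apolipoprotein secreted by both Müller glia and macrophages, was the other gene of this list called higher, with 1013, 1083 and 1087 CPM in AL + PBS and 1977, 2242 and 4044 CPM in AL + NaIO3. Apoe rose by 0.99 ± 0.13 (log2, SE) without replicate 3, at an adjusted p of 0.0192.

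All 24 genes of microglia and macrophages that were tested had a log2 fold change above 0 with 6 libraries (median 2.34), 21 with no overlap between groups, against 9.95% of all genes. A member almost absent in AL + PBS, such as Aif1, could be tested only through its AL + NaIO3 counts. Both tallies are thus partly set by the filter on low genes. In this list edgeR called 0 with 6 libraries (21 at an unadjusted p under 0.05; DESeq2 called 17). Without replicate 3, 23 of 24 were above 0 (median 1.56) and edgeR called 7 higher. The exception was Cd163, a receptor of perivascular macrophages, with 0.685, 0.168 and 0.333 CPM in AL + PBS and 0.131, 0 and 1.79 CPM in AL + NaIO3. The list's median against the AL + PBS mean was 1.86, 1.4 and 3.09 (log2) in AL + NaIO3 and -0.15, 0.06 and -0.01 in AL + PBS, and its summed level was between 133 and 149.6 CPM in AL + PBS and 438, 297 and 1491 CPM in AL + NaIO3.

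The complement component C1qa had 10.9, 10.3 and 10.2 CPM in AL + PBS and 49.6, 30.3 and 79.4 CPM in AL + NaIO3. Without replicate 3, C1qa rose by 1.93 ± 0.20 in log2 terms (adjusted p = 0.00699). Ctss, the lysosomal protease cathepsin S of these cells, had 13.3, 15.4 and 15.6 CPM in AL + PBS and 60.5, 39.0 and 223 CPM in AL + NaIO3. For Ctss the log2 fold change without replicate 3 was 1.75 ± 0.19 (adjusted p = 0.00817). Cd68, a lysosomal glycoprotein used as a mark of activated phagocytes, had 2.06, 2.28 and 2.07 CPM in AL + PBS and 6.54, 7.32 and 32.0 CPM in AL + NaIO3. Cd68 rose by 1.69 ± 0.26 (log2, SE) without replicate 3, at an adjusted p of 0.0316. In each the lowest AL + NaIO3 library was above the highest AL + PBS library, and replicate 3 was the highest. Ptprc, the leukocyte antigen CD45, had 0.979, 1.08 and 1.03 CPM in AL + PBS and 4.48, 4.93 and 22.6 CPM in AL + NaIO3. Without replicate 3, Ptprc rose by 2.18 ± 0.31 in log2 terms (adjusted p = 0.0259). Lyz2, lysozyme, had 12.4, 12.7 and 18.4 CPM in AL + PBS and 50.2, 34.9 and 591 CPM in AL + NaIO3. Its log2 fold change without replicate 3 was 1.55 ± 0.22 (adjusted p = 0.0233). Lyz2 was highest in replicate 3. The other C1q chains were called as well. C1qb had 9.11, 9.70 and 11.9 CPM in AL + PBS and 43, 33.9 and 91.5 CPM in AL + NaIO3. C1qb rose by 1.90 ± 0.17 (log2, SE) without replicate 3, at an adjusted p of 0.00347. C1qc had 6.89, 8.26 and 10.8 CPM in AL + PBS and 37.0, 22.6 and 69.8 CPM in AL + NaIO3. Without replicate 3, C1qc rose by 1.78 ± 0.25 in log2 terms (adjusted p = 0.0233).

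Other genes of the list were not called by edgeR. Aif1, which encodes the microglial protein IBA1, had 0.131, 0.0958 and 0.133 CPM in AL + PBS and 1.14, 1.16 and 0.577 CPM in AL + NaIO3 (adjusted p = 0.183 with 6 libraries and 0.0832 without replicate 3). Cx3cr1, the fractalkine receptor, had 4.96, 6.39 and 4.07 CPM in AL + PBS and 9.54, 8.59 and 16.6 CPM in AL + NaIO3. In Cx3cr1 the log2 fold change came to 1.17 ± 0.33 with 6 libraries (adjusted p = 0.296) and 0.81 ± 0.25 without replicate 3 (adjusted p = 0.252). Csf1r, the receptor for the growth factor these cells need, had 23.5, 20.4 and 21.5 CPM in AL + PBS and 35.8, 27.6 and 59.4 CPM in AL + NaIO3. Csf1r had a log2 fold change of 0.91 ± 0.27 with 6 libraries (adjusted p = 0.319) and 0.54 ± 0.15 without replicate 3 (adjusted p = 0.216). All 3 were nonetheless above every control in each AL + NaIO3 library, though for Aif1 this is partly set by the filter on low genes. Irf8 and Mpeg1, further genes of macrophages outside the list and named after their values were seen, had log2 fold changes of 1.72 and 1.85 without replicate 3 (adjusted p = 0.0410 and 0.00817).

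Of 20 genes of lipid-laden phagocytes, 20 were above 0 with 6 libraries (median 1.26) and 19 without replicate 3 (median 0.47). Abca1, which exports cholesterol to apolipoproteins, had 40.5, 48.7 and 52.7 CPM in AL + PBS and 109, 127 and 174 CPM in AL + NaIO3. Without replicate 3, Abca1 rose by 1.32 ± 0.13 in log2 terms (adjusted p = 0.00667). Cd9, a tetraspanin, had 44.8, 57.3 and 51.4 CPM in AL + PBS and 92.7, 103 and 153 CPM in AL + NaIO3. For Cd9 the log2 fold change without replicate 3 was 0.93 ± 0.13 (adjusted p = 0.0206). These and Apoe were the 3 called, all without replicate 3. Cst7, a cystatin of phagocytes near damaged neurons, had 0 counts in each AL + PBS library and 36, 23 and 42 counts in AL + NaIO3, at least 11.7-fold higher against a floor of 3 counts per library, and did not pass the test (adjusted p = 0.0989). Gpnmb, shared by phagocytes and pigment cells, had 40.1, 26.6 and 34.7 CPM in AL + PBS and 58.3, 34.5 and 656 CPM in AL + NaIO3, nearly all of it in replicate 3.

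Complement genes beyond the C1q trio were also called without replicate 3. C3, the central component, had 2.87, 3.26 and 3.63 CPM in AL + PBS and 11.2, 11.3 and 44.6 CPM in AL + NaIO3. C3 rose by 1.79 ± 0.22 (log2, SE) without replicate 3, at an adjusted p of 0.0132. C4b, of the classical pathway, has a close copy and had 5.12, 4.65 and 4.90 CPM in AL + PBS and 21.1, 33.2 and 70.7 CPM in AL + NaIO3. Without replicate 3, C4b rose by 2.47 ± 0.21 in log2 terms (adjusted p = 0.00347). Serping1, the C1 inhibitor, had 17.6, 14.7 and 18.7 CPM in AL + PBS and 40.9, 35.8 and 149.9 CPM in AL + NaIO3. For Serping1 the log2 fold change without replicate 3 was 1.17 ± 0.15 (adjusted p = 0.0142). In all, 19 of 20 complement genes were above 0 with 6 libraries (median 1.78) and 16 without replicate 3 (median 0.77), and 6 were called in the second fit.

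Class I histocompatibility genes present antigen on most cells. Of 19 tested, 18 were above 0 with 6 libraries (median 1.29), 16 with no overlap higher and 1 lower (9.95% and 7.96% of all genes), and the medians by AL + NaIO3 library were 0.83, 1.10 and 1.71. H2-K1 had 22, 26.2 and 26.9 CPM in AL + PBS and 66.4, 82.3 and 124 CPM in AL + NaIO3. H2-K1 rose by 1.57 ± 0.14 (log2, SE) without replicate 3, at an adjusted p of 0.00347. B2m, the invariant light chain, had 56.3, 58.8 and 67.4 CPM in AL + PBS and 154, 116 and 289 CPM in AL + NaIO3. Without replicate 3, B2m rose by 1.14 ± 0.14 in log2 terms (adjusted p = 0.0142). Both were called without replicate 3, besides H2-Q4, and H2-K1 had an adjusted p of 0.0532 with 6 libraries. Of the 7 class II genes all were above 0, with library medians of 0.88, 1.37 and 3.58, and 1 was called, Cd74, the invariant chain, with 8.19, 11.1 and 11.5 CPM in AL + PBS and 25, 37.2 and 142 CPM in AL + NaIO3. For Cd74 the log2 fold change without replicate 3 was 1.59 ± 0.21 (adjusted p = 0.0196).

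Interferon-stimulated genes were above 0 in 31 of 31 with 6 libraries (median 0.95) and 30 of 31 without replicate 3 (median 0.75). The controls themselves differed, with medians of 0.58, -0.25 and -0.34 against their mean, since AL + PBS replicate 1 was higher: Ifit3, an antiviral protein, had 58.7, 24.4 and 20.8 CPM in AL + PBS and 51.4, 50.7 and 67.6 CPM in AL + NaIO3, and the groups overlapped. DESeq2 called 12 genes of the list higher with 6 libraries and 8 without replicate 3. Gbp2, a guanylate-binding protein, was the 1 called by edgeR, with 7.15, 4.07 and 4.77 CPM in AL + PBS and 21.8, 20.6 and 45.5 CPM in AL + NaIO3. Gbp2 rose by 1.99 ± 0.24 (log2, SE) without replicate 3, at an adjusted p of 0.0132.

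Of 17 chemokine genes, 16 were above 0 with 6 libraries (median 1.52), and edgeR called 0 with 6 libraries (9 at an unadjusted p under 0.05; DESeq2 called 7) and 0 without replicate 3 (10 before adjustment; DESeq2 called 5). Ccl2, which recruits monocytes, had 0 counts in each AL + PBS library and 66, 21 and 107 in AL + NaIO3, at least 21.7-fold higher against the floor of 3 counts per library (adjusted p = 0.12). Ccl3 likewise had 0 counts in the controls and 26, 9 and 32 in AL + NaIO3. Both had counts in all 3 AL + NaIO3 libraries and in 0 of 3 controls. They could be tested only through their AL + NaIO3 counts, so the chemokine tally and median are partly set by the filter on low genes. Of 25 cytokine, NF-kB and inflammasome genes, 23 were above 0 in both fits (medians 1.20 and 0.67), and Bcl3 and Vcam1 were called without replicate 3. Vcam1, a leukocyte adhesion protein, had 13.9, 14.7 and 11 CPM in AL + PBS and 31.6, 25.5 and 74.7 CPM in AL + NaIO3. Without replicate 3, Vcam1 rose by 1.11 ± 0.17 in log2 terms (adjusted p = 0.0362). Il1b had 0, 2 and 0 counts in AL + PBS and 9, 7 and 26 in AL + NaIO3, and Tnf had 1, 0 and 0 against 3, 2 and 6, too few for either to be tested.

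**Figure D4:**
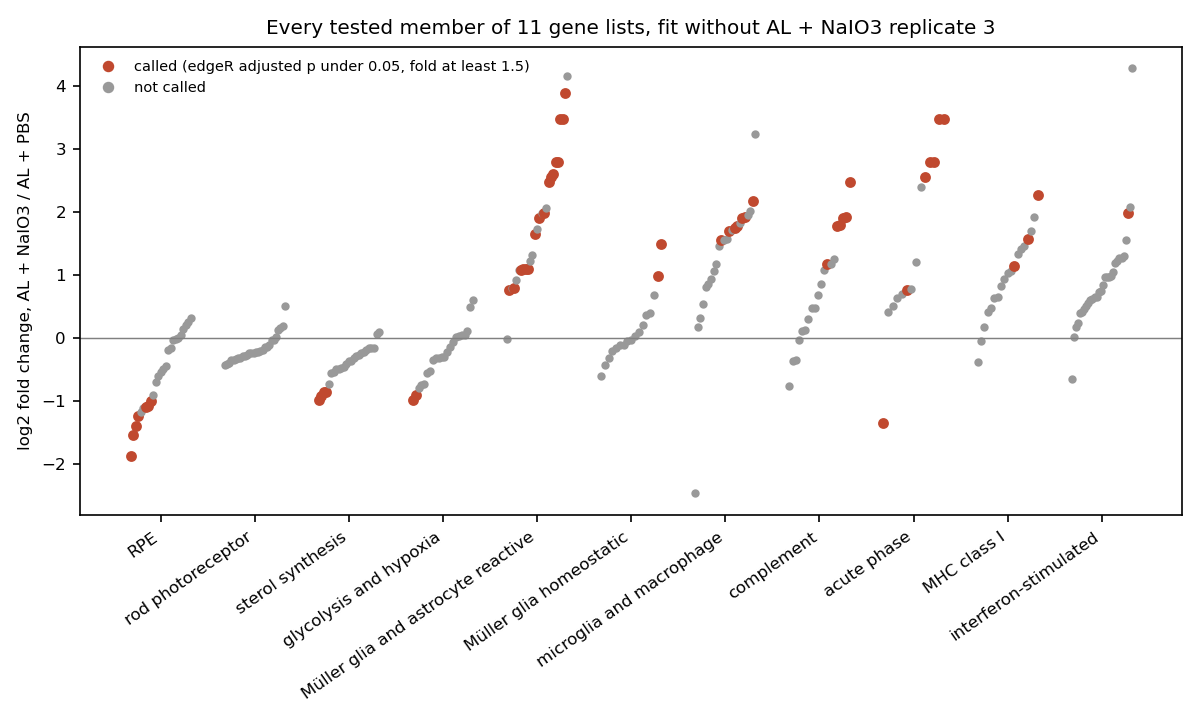
Log2 fold change of every tested member of 11 gene lists in the fit without AL + NaIO3 replicate 3, ordered by value within each list; red points were called and grey points were not. Called members of the RPE, sterol and glycolysis lists are all below 0, and 17 reactive glial, 7 microglial and 6 complement genes are called above 0.

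Of 25 genes of cholesterol synthesis, 23 were below 0 in both fits, with a median log2 fold change of -0.45 with 6 libraries and -0.37 without replicate 3, and in 20 the groups did not overlap, against 7.96% of all genes. The list's medians by library were -0.35, -0.43 and -0.65 (log2). The summed level was between 1405 and 1463 CPM in AL + PBS and 1053, 974 and 872 CPM in AL + NaIO3. Insig1 was called with 6 libraries, and without replicate 3 edgeR called 4 lower, among them Insig1 and Idi1.

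Idi1, which isomerizes the isoprene unit, had 43.5, 46.2 and 45.8 CPM in AL + PBS and 27.2, 22.8 and 17.3 CPM in AL + NaIO3. For Idi1 the log2 fold change without replicate 3 was -0.86 ± 0.13 (adjusted p = 0.0290). Every AL + NaIO3 library was below every control. Hmgcs1, a synthase early in the pathway, had 143, 165 and 149.8 CPM in AL + PBS and 102, 81.5 and 74.2 CPM in AL + NaIO3 (adjusted p = 0.136 with 6 libraries and 0.0623 without replicate 3). Of 15 fatty acid synthesis genes, 8 were below 0 with 6 libraries (median -0.05) and 11 without replicate 3 (median -0.14), and edgeR called 0 with 6 libraries (1 at an unadjusted p under 0.05; DESeq2 called 0) and 0 without replicate 3 (3 before adjustment; DESeq2 called 0). Acly, which supplies cytosolic acetyl-CoA to both pathways, had 253, 239 and 238 CPM in AL + PBS and 211, 167 and 176 CPM in AL + NaIO3. Acly had a log2 fold change of -0.40 ± 0.13 with 6 libraries (adjusted p = 0.358) and -0.37 ± 0.13 without replicate 3 (adjusted p = 0.297).

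Glycolysis genes were lower in part. Of 22, 18 were below 0 with 6 libraries (median -0.31) and 15 without replicate 3 (median -0.30), and in 10 the groups did not overlap, all lower, against 7.96% of all genes. Hk2, the hexokinase of photoreceptor aerobic glycolysis, had 661, 653 and 652 CPM in AL + PBS and 392, 273 and 178 CPM in AL + NaIO3. Without replicate 3, Hk2 fell by 0.98 ± 0.16 in log2 terms (adjusted p = 0.0470). Slc16a3, a lactate exporter, had 80.2, 78.6 and 77.6 CPM in AL + PBS and 45.9, 38.6 and 33.9 CPM in AL + NaIO3. Its log2 fold change without replicate 3 was -0.90 ± 0.11 (adjusted p = 0.0142). With Slc16a8, 2 lactate transporters were called lower without replicate 3. Pfkl, the liver phosphofructokinase, had 552, 538 and 508 CPM in AL + PBS and 399.9, 326 and 323 CPM in AL + NaIO3 and was not called. Pfkl had a log2 fold change of -0.61 ± 0.14 with 6 libraries (adjusted p = 0.259) and -0.56 ± 0.13 without replicate 3 (adjusted p = 0.148). The respiratory chain list had 16 of 25 above 0 (median 0.12), and edgeR called 0 with 6 libraries (0 at an unadjusted p under 0.05; DESeq2 called 0) and 0 without replicate 3 (7 before adjustment; DESeq2 called 0).

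Genes that produce oxidants or defend against them were not called by edgeR, apart from Mt2. All 9 genes of the NADPH oxidase list were above 0 with 6 libraries (median 1.69), and edgeR called 0 with 6 libraries (6 at an unadjusted p under 0.05; DESeq2 called 4) and 0 without replicate 3 (5 before adjustment; DESeq2 called 2). Cybb, the catalytic subunit of the phagocyte oxidase, had 1.17, 1.29 and 2.60 CPM in AL + PBS and 4.77, 3.70 and 27.9 CPM in AL + NaIO3. For Cybb the log2 fold change was 2.85 ± 0.81 with 6 libraries (adjusted p = 0.306) and 1.33 ± 0.41 without replicate 3 (adjusted p = 0.257). Ncf1, its cytosolic organizer, had 2.38, 1.99 and 1.5 CPM in AL + PBS and 4.22, 3.01 and 11.7 CPM in AL + NaIO3. In Ncf1 the log2 fold change came to 1.69 ± 0.54 with 6 libraries (adjusted p = 0.340) and 0.88 ± 0.35 without replicate 3 (adjusted p = 0.360). These genes are expressed by phagocytes, and replicate 3 was the highest for both. Of 29 antioxidant and NRF2 target genes, 23 were above 0 (median 0.22 with 6 libraries and 0.09 without replicate 3), and edgeR called 0 with 6 libraries (6 at an unadjusted p under 0.05; DESeq2 called 2) and 0 without replicate 3 (4 before adjustment; DESeq2 called 1). Hmox1, heme oxygenase 1, had 4.11, 2.68 and 3.60 CPM in AL + PBS and 7.26, 5.76 and 20.7 CPM in AL + NaIO3. Hmox1 had a log2 fold change of 1.70 ± 0.50 with 6 libraries (adjusted p = 0.32) and 0.91 ± 0.28 without replicate 3 (adjusted p = 0.256). Nfe2l2, which encodes NRF2, had 32.9, 28.3 and 29.6 CPM in AL + PBS and 32.2, 29.0 and 44.7 CPM in AL + NaIO3 and overlapped. Of the 9 metallothionein and zinc genes 1 was called, Mt2, and 5 were above 0; Mt1 had 79.9, 89.2 and 85.1 CPM in AL + PBS and 112, 129 and 115 CPM in AL + NaIO3 (adjusted p = 0.242).

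No cell death gene passed edgeR's test. Of 22, 17 were above 0 with 6 libraries (median 0.22), and edgeR called 0 with 6 libraries (9 at an unadjusted p under 0.05; DESeq2 called 4) and 0 without replicate 3 (9 before adjustment; DESeq2 called 2). Casp8, the initiator caspase of death receptors, had 1.53, 2.18 and 2.00 CPM in AL + PBS and 3.73, 4.24 and 8.57 CPM in AL + NaIO3. For Casp8 the log2 fold change was 1.53 ± 0.41 with 6 libraries (adjusted p = 0.284) and 1.06 ± 0.32 without replicate 3 (adjusted p = 0.239). Fas, the receptor itself, had 0.653, 0.790 and 0.667 CPM in AL + PBS and 2.91, 3.66 and 5.91 CPM in AL + NaIO3 (adjusted p = 0.109 with 6 libraries and 0.0533 without replicate 3). Bax, the mitochondrial effector, had 33.7, 28.8 and 32.8 CPM in AL + PBS and 41.4, 43.8 and 39.7 CPM in AL + NaIO3. In Bax the log2 fold change came to 0.39 ± 0.12 with 6 libraries (adjusted p = 0.330) and 0.42 ± 0.12 without replicate 3 (adjusted p = 0.229). In all 3 the groups did not overlap, as in 8 of the 22 genes higher and 1 lower (9.95% and 7.96% of all genes). Mlkl, of necroptosis, had 6, 13 and 6 counts in AL + PBS and 8, 18 and 29 in AL + NaIO3 and was not tested.

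Stroma, wound and vessel genes moved with replicate 3. The 18 genes of choroid and sclera stroma had library medians of 0.07, -0.20 and 2.19 (log2), and their summed level was between 501 and 604 CPM in AL + PBS and 657, 553 and 2462 CPM in AL + NaIO3. All 18 were above 0 with 6 libraries, but 8 without replicate 3, and the median went from 1.13 to -0.12. Col1a1, the main fibrillar collagen, had 16.9, 25.7 and 24.5 CPM in AL + PBS and 19.1, 12.9 and 158 CPM in AL + NaIO3. The 18 wound and fibrosis genes had library medians of 0.19, 0.31 and 2.18, and the 15 endothelial genes 0.20, 0.16 and 1.54. In these 3 lists edgeR called 0 genes in either fit, while with 6 libraries 4, 8 and 5 genes had an unadjusted p under 0.05 and DESeq2 called 1, 3 and 0.

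**Figure D5:**
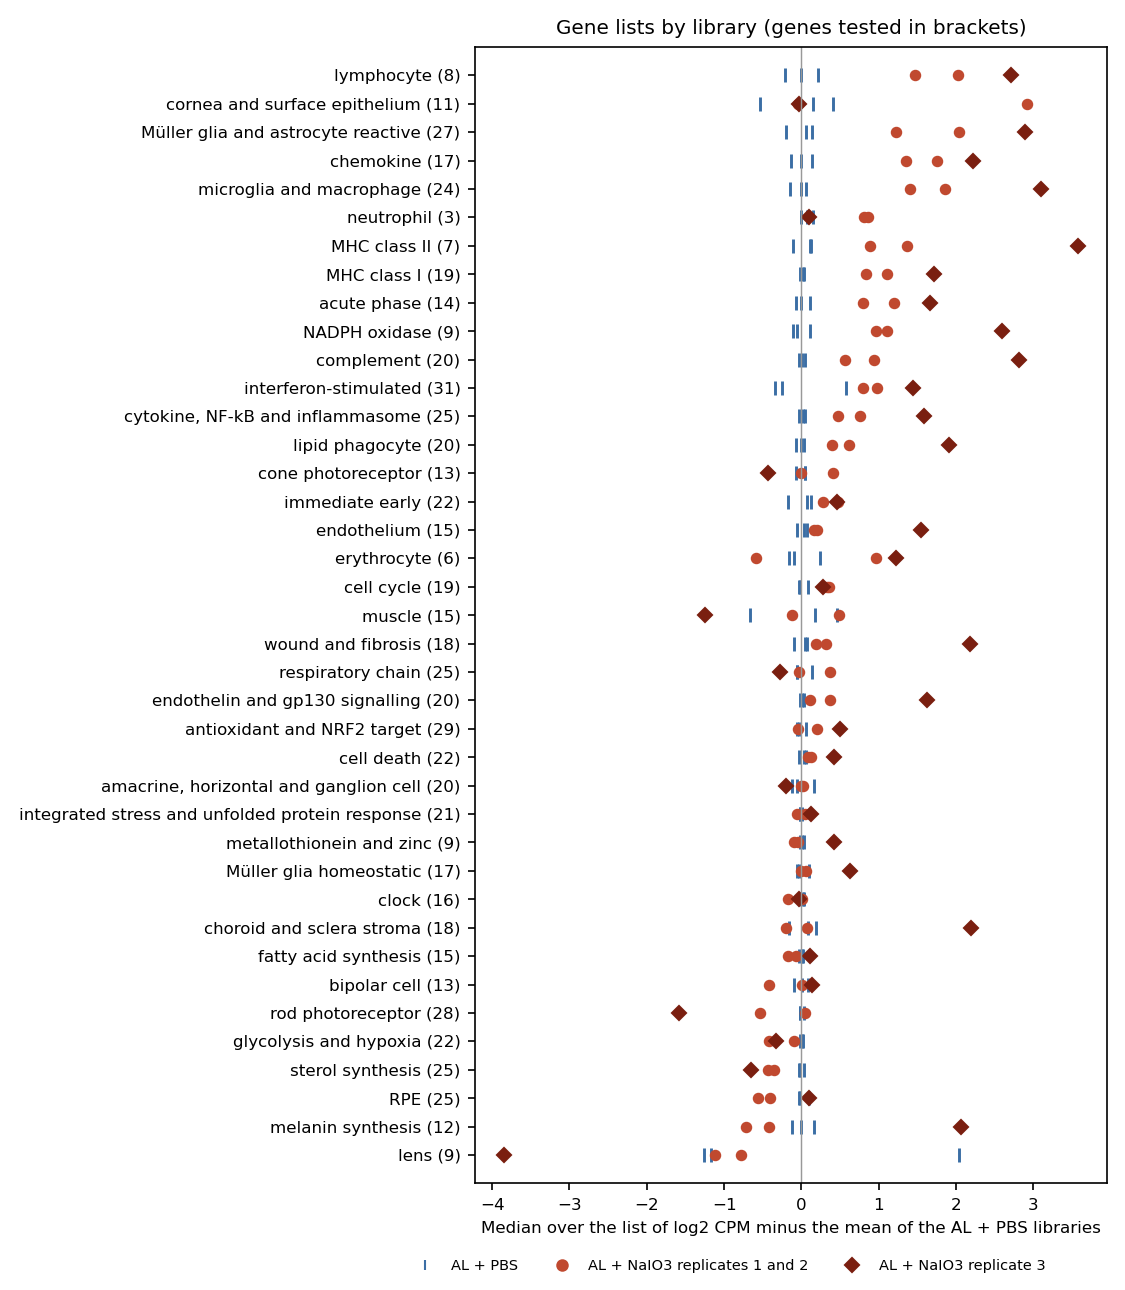
Median over each gene list of log2 CPM minus the mean of the AL + PBS libraries, for AL + PBS (blue ticks), AL + NaIO3 replicates 1 and 2 (red circles) and AL + NaIO3 replicate 3 (dark diamonds), with the number of genes tested in brackets. The reactive glial (1.23, 2.04 and 2.89) and microglial (1.86, 1.4 and 3.09) lists are above the controls in all 3 AL + NaIO3 libraries and the sterol list below them, whereas the melanin and stroma lists are far above them in replicate 3 alone.

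Outside the lists, the largest falls without replicate 3 included a gene of lipid handling. Pltp, a phospholipid transfer protein, had 45.9, 47.5 and 41.9 CPM in AL + PBS and 19.9, 14.1 and 34.9 CPM in AL + NaIO3. Pltp fell by 1.41 ± 0.17 (log2, SE) without replicate 3, at an adjusted p of 0.0127. Pde10a, a cyclic nucleotide phosphodiesterase, had 26.3, 27.5 and 29.7 CPM in AL + PBS and 13.3, 9.71 and 25.6 CPM in AL + NaIO3. Without replicate 3, Pde10a fell by 1.28 ± 0.17 in log2 terms (adjusted p = 0.0192). In both genes replicate 3 was nearer to the controls than replicates 1 and 2, and with 6 libraries their adjusted p was 0.327 and 0.475. Ptgds, a prostaglandin synthase and retinoid carrier of the RPE, named after its values were seen, had 899.7, 879.9 and 944 CPM in AL + PBS and 472, 402 and 808 CPM in AL + NaIO3. For Ptgds the log2 fold change without replicate 3 was -1.06 ± 0.13 (adjusted p = 0.0138). Dusp4, a phosphatase of MAP kinases, had 33.5, 34.9 and 35.3 CPM in AL + PBS and 12.2, 16.6 and 32.6 CPM in AL + NaIO3. Dusp4 fell by 1.27 ± 0.16 (log2, SE) without replicate 3, at an adjusted p of 0.0154.

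Among the rises outside the lists, Enpp6, a choline-specific phosphodiesterase, had 0.0653, 0.12 and 0.200 CPM in AL + PBS and 1.70, 2.36 and 3.46 CPM in AL + NaIO3. Without replicate 3, Enpp6 rose by 3.95 ± 0.61 in log2 terms (adjusted p = 0.0362). Its counts were only 2, 5 and 6 in AL + PBS, against 52, 65 and 126 in AL + NaIO3. Enpp6 could thus be tested only through its AL + NaIO3 counts. Apoc1, an apolipoprotein encoded beside Apoe, had 0.685, 1.20 and 0.733 CPM in AL + PBS and 4.05, 4.93 and 4.95 CPM in AL + NaIO3. For Apoc1 the log2 fold change without replicate 3 was 2.34 ± 0.38 (adjusted p = 0.0425). Chil1, a secreted chitinase-like protein of reactive astrocytes, had 25.8, 27.8 and 33.3 CPM in AL + PBS and 75.4, 54.5 and 407 CPM in AL + NaIO3. Chil1 rose by 1.16 ± 0.17 (log2, SE) without replicate 3, at an adjusted p of 0.0259. Tmsb4x, an actin-binding thymosin, had 146, 167 and 154 CPM in AL + PBS and 285, 326 and 259 CPM in AL + NaIO3. Without replicate 3, Tmsb4x rose by 0.97 ± 0.11 in log2 terms (adjusted p = 0.0127). Gbp5, Ifi203, Unc93b1 and Ctsh had log2 fold changes without replicate 3 of 2.06, 2.17, 1.38 and 0.93 (adjusted p = 0.0410, 0.0430, 0.0179 and 0.0332). Apart from Enpp6, these genes were named after their values were seen. Ube2v2 and Pcdh15 rose without replicate 3, in which they were below and within the controls. The predicted gene Gm20716 had 575 and 5232 counts in AL + NaIO3 replicates 1 and 2 and 0 in replicate 3 and the controls, at a locus shared with Adnp and Dpm1. Against the floor of 3 counts per library this is at least 773-fold higher over all 3 AL + NaIO3 libraries and at least 1159-fold without replicate 3. On the IF diet Gm20716 was at 174 CPM in IF + PBS replicate 3, at 45.9 CPM in IF + NaIO3 replicate 1 and at 0 in the other 4 libraries. Tbc1d1, Abhd2 and Col8a2 were called lower without replicate 3 but were above each control in it (12.6, 13.1 and 46.3 CPM against 23.5, 21.6 and 26 CPM for Tbc1d1). Among the other called genes, B2m, Cebpd, Cp, Irf8, Kcnj13, Pltp, Rdh5, Slc16a3 and Tgm2 also lie over part of a neighbouring gene.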

How the data were processed

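Gene counts of 12 libraries were used, 3 in each group, of which the 6 libraries of AL + NaIO3 and AL + PBS are compared here; the IF libraries enter the test of a difference between diets and 1 alternative. The study pooled both eye cups of a mouse for its qPCR and gives a sample size of 3 for RNA-seq, without stating the animal behind each library, so p-values measure the spread between libraries, which may in part be technical. Poly-A RNA was sequenced for the authors by a company, APExBIO Technology. The authors' processing notes name HISAT2, StringTie, DESeq2, edgeR and GRCm39. The counting tool, annotation and use of strand are not given in the sources used here. The coordinates fit GRCm38 instead: 21203 of 21221 genes matched by name overlap their RefSeq GRCm38.p6 position.

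The deposited counts are whole reads per gene without normalization, for 21930 genes, 3528 of them at 0 in the 6 libraries. The authors' FPKM divide counts by gene length and library size. They are used only for marker genes, to compare levels between genes and the tissue held by each library. A deposited table of the authors' comparison of IF + NaIO3 with AL + NaIO3, with fold changes and p-values, was not used. No sample column was left unmapped (0). Some genes that the rule names are not reported here.

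In R 4.3.3, edgeR 4.0.16 (with limma 3.58.1) was run with TMM scaling, filterByExpr and the quasi-likelihood test on the 6 libraries, and again without AL + NaIO3 replicate 3, with Benjamini-Hochberg adjustment over all genes tested. SE is the log2 fold change divided by the root of the F statistic. Genes almost absent in AL + PBS, such as Cst7, Ccl2 and Ccl3, passed filterByExpr only through AL + NaIO3, which favours rises in lists that hold them. The test was tried on simulated data first. CPM use TMM-scaled library sizes within a diet, and list values log2 CPM with a prior count of 2. Counting error limits genes near 3 counts; at these depths the spread between libraries limits the rest. Replicates of a group were not duplicates (chi-square of counts per gene between 13.2 and 238).

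The comparison, the 39 gene lists (717 genes) and the rule for named genes were chosen with earlier results of these data known. Named were the genes called with 6 libraries, the 10 largest rises and falls without replicate 3 whose groups did not overlap, and of each list its first 3 genes, its called members, its 2 lowest p-values and members that show its range, and genes the study measured by qPCR or as protein. Alternatives were DESeq2 1.42.0, upper quartile scaling, no filter, at least 10 counts in each library, all groups in 1 fit, the replicate number as a block, other fold thresholds, and each library left out.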

Additional observations from a re-analysis of the deposited data

Results flagged for a closer look

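For 5 of the 12 genes called on the AL diet the effect of NaIO3 differed from that on the IF diet, tested with edgeR as the interaction of diet and injection over all 12 libraries; 15970 genes were tested, 5 passed an adjusted p under 0.05 and 1910 an unadjusted p under 0.05. In IF + NaIO3 against IF + PBS itself, edgeR called 0 of 15305 genes, with 2326 at an unadjusted p under 0.05, and DESeq2 called 80. CPM of the IF libraries are scaled among themselves.

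Lcn2, which rose on the AL diet, had 5.6, 7.31 and 4.26 CPM in IF + PBS and 4.49, 4.98 and 3.56 CPM in IF + NaIO3, and its log2 fold change was 4.28 higher on AL than on IF (adjusted p = 0.00200). Edn2, which rose on the AL diet, had 2.86, 2.65 and 1.58 CPM in IF + PBS and 2.22, 2.07 and 2.07 CPM in IF + NaIO3, and its log2 fold change was 4.5 higher on AL than on IF (adjusted p = 0.00495). Cebpd, which rose on the AL diet, had 8.43, 9.55 and 11.7 CPM in IF + PBS and 13.9, 13.7 and 11.4 CPM in IF + NaIO3, and its log2 fold change was 2.43 higher on AL than on IF (adjusted p = 0.00495). The sterol gene Insig1 had 81.0, 89.0 and 90.1 CPM in IF + PBS and 89.5, 94.1 and 93.9 CPM in IF + NaIO3, a difference of -1.17 between the diets (AL minus IF, adjusted p = 0.00981). For Gm42669, at a locus shared with other genes, the difference was -3.10 (adjusted p = 0.0212), with 41.8, 35.1 and 36.3 CPM in IF + PBS and 42.8, 25.2 and 32.1 CPM in IF + NaIO3. In Lcn2, Edn2 and Cebpd the IF + NaIO3 libraries lay at or near the range of the IF + PBS libraries. When 1 library was left out, between 3 genes (without AL + PBS replicate 3) and 366 genes (without AL + NaIO3 replicate 1) passed.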

How the results depend on the processing

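With 6 libraries, DESeq2 called 411 genes (369 higher, 42 lower; 89.8% higher against 66.7% with edgeR), 1 fit of all groups called 177 (152 and 25; 85.9%), and no filter on low genes called 19 (13 higher). Upper quartile scaling called 13 (76.9% higher). Each of these 4 kept the 12 genes except upper quartile scaling, which kept 11. Leaving out 1 library at a time gave 0 to 90 calls (0 to 62 higher and 0 to 28 lower): 0 without AL + PBS replicate 1, 2 or 3, 8 without AL + NaIO3 replicate 1, 5 without replicate 2 and 90 without replicate 3. Over all alternatives run, each of the 12 was called in 5 to 9 of 12, and its highest adjusted p was between 0.206 and 0.408. Among lists given above with edgeR calls alone, DESeq2 with 6 libraries called 9 complement, 12 class I, 5 class II and 7 lipid phagocyte genes higher. It called 5 RPE and 7 sterol genes lower.

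Without AL + NaIO3 replicate 3, DESeq2 called 348 genes (256 higher, 92 lower), no filter 151 (117 higher), and a fold change of at least 2 left 18 lower. Leaving out another library gave 17 to 370 calls (14 to 229 higher, 3 to 146 lower): 34, 32 and 17 without AL + PBS replicate 1, 2 and 3, and 370 and 273 without AL + NaIO3 replicate 1 and 2, which leaves 1 injected library whose spread is taken from the controls. The interaction of diet and injection gave 215 genes with DESeq2 and 3 to 366 when 1 library was left out, the most without AL + NaIO3 replicate 1.

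Replicate numbers did not pair the libraries: deviations of same-numbered libraries correlated at -0.075, -0.069 and -0.043. With the replicate block, 28 genes were called with 6 libraries (23 higher), 169 without replicate 3 (131 higher) and 8 in the interaction; these included 8 of the 12 genes and 70 of the 90. Of the 12, Slc16a8, Pon1, Insig1 and Mt2 were not called under at least 1 alternative that kept all 6 libraries. Over all results and alternatives, 4803 values were counted as unchanged. These include genes not called whose sign changed. They also include list medians that shifted by less than the spread between AL + NaIO3 libraries, whatever their sign. Another 313 values came past the threshold, 194 no longer passed it, and 108 counts or list values moved. Of the genes called in a main fit, 0 changed sign. Groups of 3 or 2 libraries limit every call, the replicate 3 library differs in tissue from the rest, and genes near 3 counts, such as Il1b and Tnf, could not be tested at this depth.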

Other observations

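Lists of other cell types and programs added the following. Of 8 lymphocyte genes tested, 8 were above 0 with 6 libraries and 6 did not overlap, against 9.95% of all genes, but levels were low: Cd3g, of the T cell receptor complex, had 0.196, 0 and 0.200 CPM in AL + PBS and 0.850, 0.399 and 0.907 CPM in AL + NaIO3, and Lck, a T cell kinase, had 0.196, 0.503 and 0.367 CPM in AL + PBS and 0.817, 2.90 and 3.30 CPM in AL + NaIO3. Genes as low as Cd3g in AL + PBS could be tested only through their AL + NaIO3 counts, so both tallies are partly set by the filter. For lymphocyte genes edgeR called 0 with 6 libraries (5 at an unadjusted p under 0.05; DESeq2 called 3). Neutrophil genes were near the limit, with 3 of 12 tested and S100a9 at 0.555, 0.239 and 0.367 CPM in AL + PBS and 0.719, 0.689 and 0.22 CPM in AL + NaIO3. Of 19 cell cycle genes, 13 were above 0 (median 0.22), and edgeR called 0 with 6 libraries (3 at an unadjusted p under 0.05; DESeq2 called 2). Top2a, the topoisomerase of dividing cells, had 0.392, 0.575 and 0.40 CPM in AL + PBS and 1.14, 2.43 and 2.86 CPM in AL + NaIO3, and Mki67 had 0.620, 0.695 and 0.0667 CPM in AL + PBS and 1.90, 2.75 and 1.90 CPM in AL + NaIO3.

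Immediate early genes had 15 of 22 above 0 (median 0.37), and edgeR called 0 with 6 libraries (9 at an unadjusted p under 0.05; DESeq2 called 3). Fos was at 31.3, 61.5 and 60.3 CPM in AL + PBS and 67.7, 52.2 and 36.6 CPM in AL + NaIO3, which overlapped, and Fosl2 at 6.27, 9.65 and 10.8 CPM in AL + PBS and 14.2, 20.8 and 26.2 CPM in AL + NaIO3. Clock genes had 6 of 16 above 0 (median -0.07), and edgeR called 0 with 6 libraries (1 at an unadjusted p under 0.05; DESeq2 called 0). In the integrated stress and unfolded protein list the median was -0.06 and 9 of 21 were above 0; Nupr1 was called higher and Phgdh, the first enzyme of serine synthesis, was called lower without replicate 3 (31.6, 34.1 and 34.1 CPM in AL + PBS and 17.1, 19.5 and 28.2 CPM in AL + NaIO3), while Atf4, the central factor of the response, had 252, 256 and 253 CPM in AL + PBS and 268, 201 and 169.9 CPM in AL + NaIO3. Acute phase genes had 13 of 14 above 0 (median 1.12), 6 called higher and Pon1 lower without replicate 3.

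Corneal, lens, muscle and red blood cell lists had 0 calls by edgeR with 6 libraries (3, 4, 0 and 0 genes at an unadjusted p under 0.05) and 0, 0, 0 and 0 by DESeq2, and 1 library stood out in most: the corneal median was -0.04, 2.91 and -0.04 (log2) in AL + NaIO3, highest in replicate 2, and the lens median -1.26, 2.04 and -1.17 in AL + PBS, highest in replicate 2. The muscle median was 0.46, -0.67 and 0.17 in AL + PBS and 0.48, -0.12 and -1.25 in AL + NaIO3, and the red blood cell median 0.96, -0.59 and 1.22 in AL + NaIO3. Without replicate 3, edgeR again called 0 in each list. Its unadjusted p was under 0.05 for 9 corneal, 6 lens, 3 muscle and 0 red blood cell genes. The median log2 fold changes in that fit were 2.22 for the corneal and -3.66 for the lens list. DESeq2 called 1 corneal and 1 muscle gene higher there and 1 lens gene lower.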
